A study of Bos taurus with 12 samples.

Results

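The genes described here are NFE2L2, which encodes the transcription factor NRF2, and 9 antioxidant enzyme genes, NQO1, GCLC, GCLM, TXNRD1, SOD1, SOD2, CAT, GPX1 and PRDX1. They were chosen as a pathway and found on the bovine array through the RefSeq accession of each probe. All 10 genes were found, among 12639 genes that could be named, and they were represented by 23 of the 43653 probes. Mammary gland (MG) biopsies of 12 multiparous Holstein cows in early lactation were analyzed with 1 array per cow. The 6 CONT cows stayed on a lactation diet offered ad libitum, and the 6 REST cows received that ration diluted with barley straw (48% of dry matter) for 4 d, starting at 24 ± 3 d in milk. All cows of both groups were given 50 µg of lipopolysaccharide (LPS) into a rear gland of the udder on d 3 and were biopsied 24 h later. The arrays therefore compare diets after the LPS challenge, and no array of an unchallenged gland was part of the comparison.

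NRF2 is held in the cytoplasm by KEAP1, which presents it to a CUL3 ubiquitin ligase for degradation. Oxidants and electrophiles modify KEAP1, NRF2 then accumulates in the nucleus, and together with small MAF proteins it drives genes of glutathione synthesis, quinone reduction and thioredoxin recycling. Superoxide dismutases convert superoxide to hydrogen peroxide, and catalase, glutathione peroxidases and peroxiredoxins remove the peroxide. The lactating gland has a high oxidative metabolism, and endotoxin adds oxidants from recruited neutrophils. SOD2 differs from the other enzymes in being a classical target of NF-κB, the transcription factor that LPS activates through TLR4.

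The values are log2 spot intensities minus the 75th percentile of the same array, so that 0 is the level of that percentile and 1 unit is a 2-fold difference. A level of one gene cannot be set against the level of another, since probes differ in how they hybridize. The 75th percentile was an intensity of 577.1 to 1184 in CONT and 386.9 to 1082 in REST. Array signals correlated with each other at 0.9323 to 0.9841. The arrays lay on 3 slides, with 3 CONT and 1 REST arrays on slide 1, 1 CONT and 3 REST arrays on slide 2, and 2 arrays of each group on slide 3. The negative control spots gave 37.73 to 58.19 on slide 1 and 17.43 to 19.96 on the other slides. Biopsies mix cell types, and in such tissue fewer cells of a type and less RNA per cell cannot be told apart. The casein and whey protein genes of the secretory epithelium were bright in all cows, CSN1S1 at 8.44 to 9.71 in CONT and 8.80 to 10.09 in REST, and the acute phase gene SAA3 ranged from 8.47 to 9.34 in CONT. A library of each group stood apart on some of these genes. CONT cow 8027 had the whey protein gene LALBA at 6.94, against 9.02 to 9.94 in the other CONT cows. REST cow 0049 had SAA3 at 4.44, against 7.99 to 9.56 in the other REST cows. Whether the biopsied gland of this cow responded to LPS like those of the other cows cannot be told from the labels, and this bears on every REST mean. The difference of each of the 10 genes is therefore also given without it.

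None of the 10 genes differed between REST and CONT past the adjusted threshold. limma gave a Westfall-Young adjusted p of 1 for each of their 23 probes, and the lowest Benjamini-Hochberg adjusted p was 0.9999. Across the whole array 0 of 43653 probes (0%) passed with either adjustment in limma. At an unadjusted p under 0.05 limma gave 0 of the 23 probes, beside 1143 probes or 2.62% of the array. For 1 probe per gene, 206 of 12639 genes (1.63%) were higher and 128 (1.01%) lower in REST at that level. Groups that did not overlap were found for none of the 23 probes, against 0.128% of all probes. NFE2L2, TXNRD1 and CAT had a higher mean in REST and the other 7 genes a lower one, while 43.5% of all genes had a higher mean in REST. The median difference over the 10 genes was -0.13 on the log2 scale, against -0.03 over all genes. It was not stable in sign, being 0.047 without REST cow 0049 and 0.029 with slide as a block. Single differences are described below with their 95% intervals, which is what 6 cows per group allow, and an interval that spans 0 does not show that the diets gave equal levels.

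**Figure D1:**
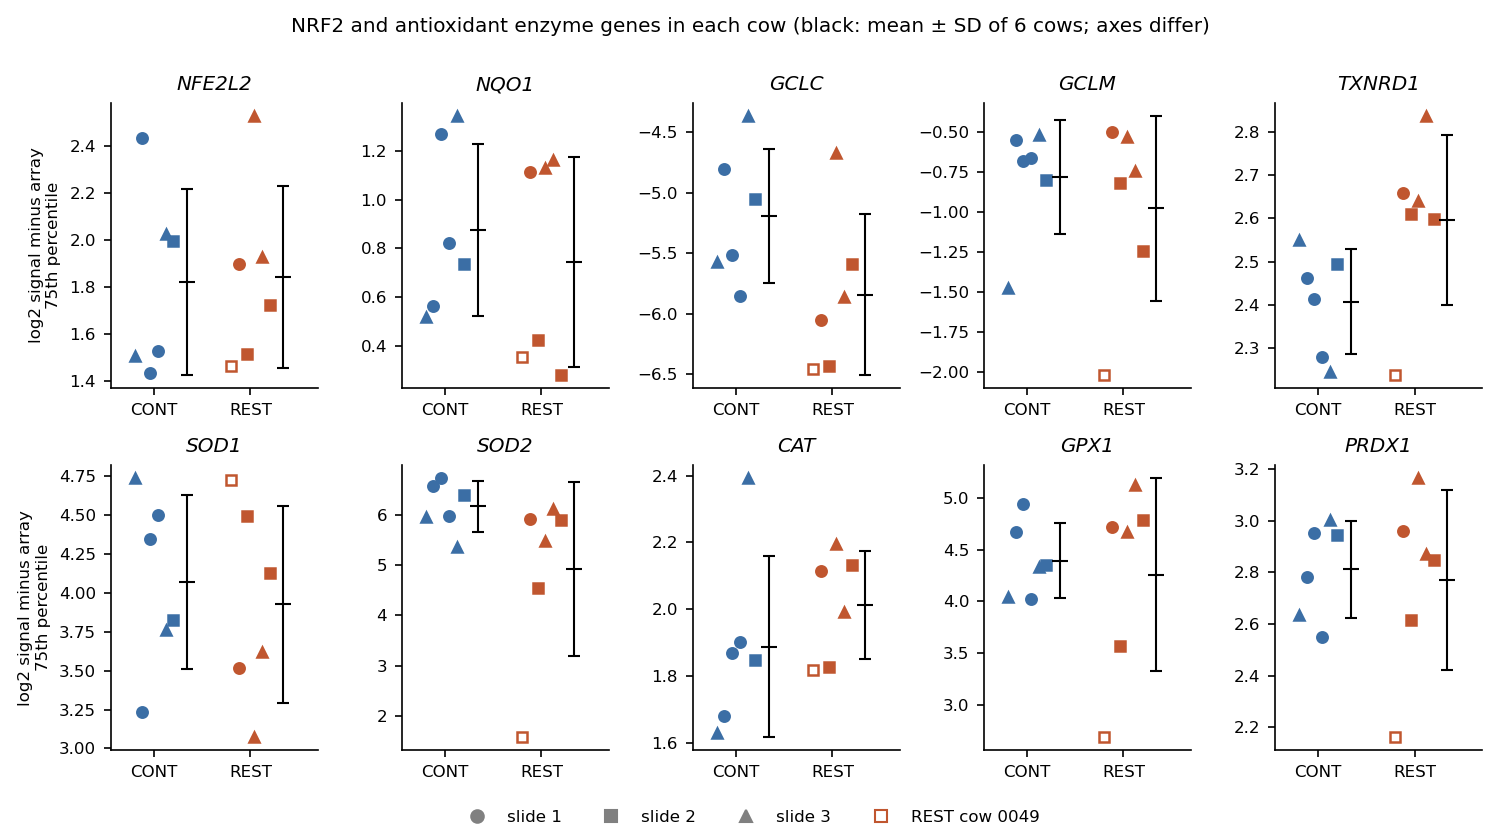
Signal of the brightest probe of each gene (log2 signal minus the 75th percentile of the array) for every cow by diet, with the slide as the symbol and the mean ± SD of the 6 cows beside the points. REST cow 0049, drawn open, was the lowest of all 12 cows for GCLM, SOD2, GPX1 and PRDX1, and on these probes also for TXNRD1 and the dim GCLC.

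NFE2L2 itself, the gene of the regulator, had log2 signals from 1.43 over a median of 1.76 to 2.44 in CONT. In REST they ran from 1.46 over 1.81 to 2.53. The ranges of the groups coincided nearly throughout, with CONT cow 0055 and REST cow 1018 the high cows of their groups. The log2 difference, REST minus CONT, was 0.02 ± 0.23 (SE), or 0.098 without cow 0049, a fold change (FC) of 1.02 with a 95% interval of 0.720 to 1.43. With all assignments of the cows enumerated, the exact permutation p was 0.922. Of the 4 probes of NFE2L2, 3 had a positive difference and 1 a negative one, from -0.04 to 0.24, so the sign is not settled even between probes. The negative regulator KEAP1 had 3.40 to 3.72 in CONT and 3.21 to 3.86 in REST, a difference of -0.08 ± 0.15. CUL3, the ligase scaffold, had 1.30 to 1.58 in CONT and 1.27 to 1.48 in REST, a difference of -0.04 ± 0.12, which changed sign with normexp background correction (0.02) and with the mean over its probes (0.02). Both genes had narrow ranges that overlapped between the diets.

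NQO1, a quinone reductase often used as a readout of NRF2 activity, had 0.52, 0.78 and 1.34 as its lowest, median and highest value in CONT. In REST these were 0.28, 0.77 and 1.16. The medians of the diets lay close together, and REST cows fell into 3 above 1.1, on slides 1 and 3, and 3 below 0.5, which were the 3 REST cows of slide 2. The difference was -0.13 ± 0.23, with an FC of 0.912 (95% interval 0.645 to 1.29) and an exact permutation p of 0.561. It was -0.054 without cow 0049, turned to 0.039 with slide as a block, and its second probe gave -0.17.

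GCLC and GCLM encode the catalytic and the modifier subunit of glutamate-cysteine ligase, the rate-limiting step of glutathione synthesis. The GCLC probe was dim, being well above background on only 2 CONT and 1 REST arrays. Its values were -5.86, -5.28 and -4.37 in CONT as lowest, median and highest, and -6.46, -5.96 and -4.67 in REST. REST cows 0049, 1015, 0078 and 1058 lay below all CONT cows, and cow 1018 was the second highest of the 12, so that the groups overlapped. The probe was not well above background on the arrays of those 4 cows, so that their order has little meaning. The difference of -0.65 ± 0.33 had the lowest limma p of the 23 probes (unadjusted p = 0.0734), with an FC of 0.637 and a 95% interval of 0.386 to 1.05. The exact permutation p was 0.0931. Within slides the GCLC difference was -0.66 on slide 1, -1.11 on slide 2 and -0.30 on slide 3. The value depends on how the background is handled at such a low signal, since normexp correction gave a difference of -0.07. Without cow 0049 the difference was -0.53.

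GCLM was measured well above background on all arrays. It had -1.47, -0.67 and -0.51 as lowest, median and highest in CONT, and -2.02, -0.78 and -0.50 in REST. In each group 1 cow lay far below, CONT cow 0015 and REST cow 0049. The difference was -0.20 ± 0.27 (FC 0.873, 95% interval 0.582 to 1.31, exact permutation p = 0.545), and it was 0.01 without REST cow 0049.

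TXNRD1 encodes the cytosolic thioredoxin reductase, a selenoprotein that keeps thioredoxin reduced. It was the member that varied least between cows of a group, with a pooled SD of 0.16, smaller than that of all but 7.31% of the 9083 genes compared. CONT values were 2.24, 2.44 and 2.55 as lowest, median and highest, and REST values 2.24, 2.63 and 2.84. The second lowest REST cow, at 2.60, lay above the highest CONT cow, so that on this probe the groups overlapped through REST cow 0049 alone. The difference was 0.19 ± 0.14, with an FC of 1.14 and a 95% interval of 0.928 to 1.40. The exact permutation p was 0.0736. The second TXNRD1 probe, which was dim on 1 CONT array, gave 0.29 ± 0.16 (exact permutation p = 0.0606), and without cow 0049 the brighter probe gave 0.26. On that second probe cow 0049 was the highest of the 12 cows (-2.78), and the overlap came from REST cows 1015 (-3.43) and 0078 (-3.07) against a CONT maximum of -3.03. Within slides the difference was 0.27, -0.01 and 0.34 on slides 1, 2 and 3.

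PRDX1, a peroxiredoxin that the thioredoxin system recycles, had 2.55, 2.86 and 3.00 in CONT and 2.16, 2.86 and 3.17 in REST. The medians were equal at this rounding, and cow 0049 again was the lowest. The difference was -0.04 ± 0.18 (FC 0.972, 95% interval 0.742 to 1.27, exact permutation p = 0.81). It was 0.08 without cow 0049 and 0.02 with slide as a block.

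SOD1, the cytosolic copper-zinc superoxide dismutase, had 3.24, 4.09 and 4.74 as lowest, median and highest in CONT, and 3.07, 3.87 and 4.73 in REST. Cow 0049 had the highest value of the REST cows on all 4 SOD1 probes. The difference was -0.14 ± 0.33, with an FC of 0.906 and a 95% interval of 0.556 to 1.48 (exact permutation p = 0.677). It was -0.30 without cow 0049. The other 3 probes gave -0.24, -0.11 and -0.11. On slide 2, where all but 1 of the cows were REST, the difference was 0.62, while it was -0.51 on slide 1 and -0.91 on slide 3.

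SOD2, the mitochondrial manganese superoxide dismutase, showed the largest difference of the 10 genes and also the largest spread. CONT values were 5.36, 6.19 and 6.74 as lowest, median and highest, and REST values 1.58, 5.69 and 6.12. Cow 0049 lay at 1.58, the next lowest REST cow, 1015, at 4.54, and the other 4 REST cows between 5.48 and 6.12. The log2 difference was -1.24 ± 0.67, an FC of 0.422 with a 95% interval of 0.155 to 1.15. The exact permutation p was 0.0736. Without cow 0049 the difference was -0.58, and limma then gave an unadjusted p of 0.102. With slide as a block it was -0.81, and within slides it was -0.51, -2.39 and 0.15 on slides 1, 2 and 3, where slide 2 held both cows 0049 and 1015. The second SOD2 probe gave -1.16 ± 0.71, with cow 0049 at 0.47 and cow 1015 at 2.95. The pooled SD of SOD2 was 1.28, larger than that of 98.2% of the 9083 genes.

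**Figure D2:**
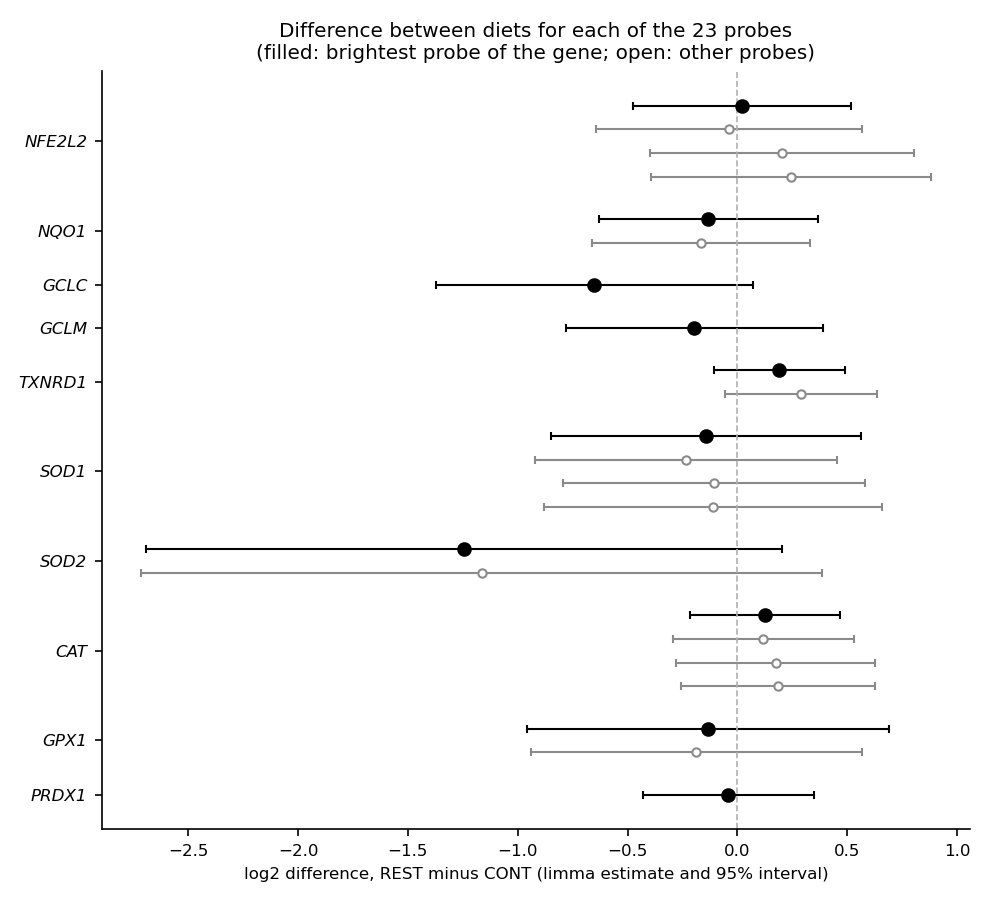
Log2 difference between REST and CONT for each of the 23 probes (limma estimate with its 95% interval), with the brightest probe of each gene filled. Every interval includes 0, and that of SOD2 is the widest, from -2.69 to 0.20 for the brightest probe.

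CAT, catalase, had 1.63, 1.86 and 2.39 as lowest, median and highest in CONT, and 1.82, 2.05 and 2.19 in REST. CONT cow 8027 alone lay above all REST cows. The difference was 0.13 ± 0.16, with an FC of 1.09 and a 95% interval of 0.861 to 1.38 (exact permutation p = 0.351), and 0.16 without cow 0049. Cow 0049 was the lowest REST cow on this probe and the highest on the other 3. The 4 CAT probes all had a positive difference, from 0.12 to 0.18, and the difference was also positive on each slide (0.30, 0.08 and 0.08). Only GCLC shared with CAT that its direction was the same on all 3 slides.

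GPX1, the selenium-dependent glutathione peroxidase of the cytosol, had 4.02, 4.34 and 4.94 in CONT and 2.69, 4.69 and 5.12 in REST. The median and the highest value were higher in REST, whereas the mean was lower. REST cows 0049 and 1015, at 2.69 and 3.57, lay below all CONT cows. The difference was -0.13 ± 0.38, with an FC of 0.912 and a 95% interval of 0.515 to 1.61. The exact permutation p was 0.771. It changed sign without cow 0049 (0.18), without cow 1015 (0.0047) and with slide as a block (0.14).

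Among the members with several probes, 6 of 7 had probes of a single sign, the exception being NFE2L2. The directions differed between slides. On slide 2, 8 of the 10 genes were lower in REST, while 7 on slide 1 and 8 on slide 3 were higher in REST. With slide as a block, 7 of 10 members had a higher mean in REST in place of 3. Without cow 0049, which was on slide 2, 6 of 10 did.

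Cow 0049 was the lowest of all 12 cows on both probes of SOD2 and of GPX1 and on the single probes of GCLM and PRDX1. It was also lowest on the dim GCLC probe, which was not well above background on its array. For TXNRD1, CAT, NFE2L2 and NQO1 its rank among the REST cows depended on the probe. Its SOD2 signal was 16.2-fold lower than the mean of the other 5 REST cows, that of GPX1 3.70-fold lower and that of GCLM 2.39-fold lower. The genes that endotoxin is known to induce were measured beside it, a list of 24 genes added once the SOD2 values had been seen, of which 22 were matched. Haptoglobin, HP, stood at -3.51 in cow 0049 and -0.27 in cow 1015, with the other REST cows above 4.0 and the CONT cows at 1.61 to 4.78. LBP, the endotoxin binding protein gene, was 2.36 in cow 0049 and 4.20 in cow 1015, against 4.62 to 6.41 in CONT. The cows with the lowest SOD2 values were also the lowest REST cows for HP and LBP, 2 genes that were named after their values had been seen. Cow 1015 lay below all CONT cows for SAA3 (7.99), M-SAA3.2 (7.68), the cytokine gene TNF (-1.84) and NFKBIA (2.39) too. It did not for lactoferrin, LTF (9.62), or the chemokine gene CXCL8 (-1.35, with a CONT minimum of -1.80). REST cow 7043 (2.55) was below all CONT cows for NFKBIA as well.

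The summed signal of the endotoxin list was 906.8 times the 75th percentile in cow 0049, against 1861 to 2923 in the other REST cows and 1652.5 to 2427 in CONT. Cow 1015, at 1861, thus lay within the CONT range. The neutrophil list, with 11 of 14 markers matched and 8 well above background in a group, summed to 7.09 in cow 0049, to 29.1 to 196.8 in the other REST cows and to 20.9 to 176.9 in CONT. S100A12, its brightest gene, had 1.60 in cow 0049 against 3.75 to 7.01 in CONT. The macrophage list, 8 of 10 matched and all 8 well above background, gave 13.2 in cow 0049, 25.2 to 59.1 in the other REST cows and 31.6 to 47.6 in CONT. CD177 remained dim in all 12 cows. The same cow had the highest sum of the secretory epithelium list (11 of 12 matched), 6212 against 2213 to 4968 in the other REST cows and 1643 to 4576 in CONT, although the epithelial keratin gene KRT8 was lowest in this cow (2.40 against 3.68 to 5.71 in CONT). It also had the highest sums of the lymphocyte (63.7), adipose (498.1) and red blood cell (26.9) lists, for which CONT gave 30.1 to 43.8, 16.8 to 374.5 and 4.49 to 20.9. Of the matched markers, 10 of 11 lymphocyte, 4 of 7 adipose and only 2 of 8 red blood cell genes were well above background in a group. Before the division by the 75th percentile, however, the secretory sum of cow 0049 was 2403000 intensity units, within the 1745000 to 2585000 of the other REST cows and the 1945000 to 3012000 of CONT. Its undivided lymphocyte sum, 24660, was the lowest of the 12 cows, with CONT cow 0015 next at 25300. Its undivided adipose (192700) and red blood cell (10410) sums lay within the range of the other cows. With the division, the fibroblast sum of cow 0049 was the lowest (24.0 against 50.8 to 67.4 in CONT), and cows 1015 (32.2), 7043 (41.5) and 1058 (45.1) were also below all CONT cows. Over both diets, 6 of 8 fibroblast markers were lower in REST (median difference -0.49, 3 with an unadjusted limma p under 0.05). For the endothelium, 7 of 7 markers were higher (median 0.50, 1 with such a p). Of the endotoxin list, 18 of 22 genes were lower (median -0.255, 1 with such a p), and 2 lymphocyte markers were higher with such a p. Over all genes, 1.01% were lower and 1.63% higher at that p, and 43.5% had a higher mean in REST. None of these markers passed the adjusted threshold. CONT cow 8027 had the lowest endothelial (5.14), adipose (16.8) and red blood cell (4.49) sums. The other CONT cows had at least 18.0, 76.7 and 12.3, so that this cow lowers the CONT side of those lists. The part of these cell type differences, and of the low 75th percentile of the array of cow 0049 (386.9), in the SOD2, GPX1 and GCLM values was not tested.

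**Figure D3:**
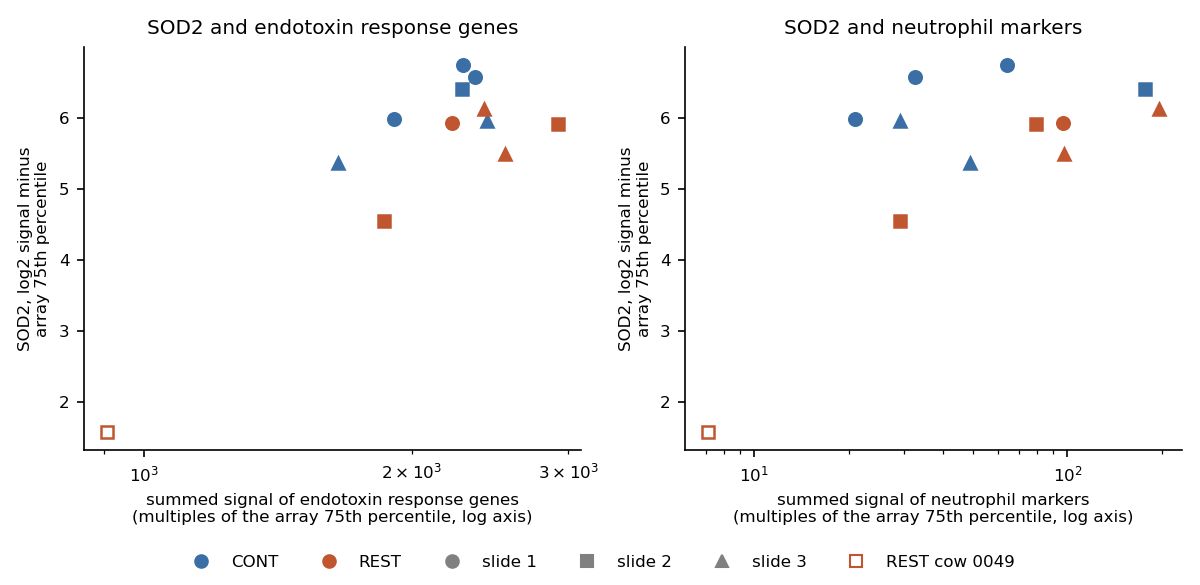
SOD2 (log2 signal minus the 75th percentile of the array) against the summed signal of endotoxin response genes and of neutrophil markers in each of the 12 cows, on a log axis. Cow 0049 is the lowest on all axes, and cow 1015, at 4.54, is the next lowest in SOD2.

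How the genes varied together between cows was examined after the group means had been subtracted, for all 45 pairs, with 100000 permutations of the cows within groups. A total of 9 pairs had a Benjamini-Hochberg adjusted p under 0.05 for Pearson's r, and 5 of them also for Spearman's rho. The strongest relation joined NFE2L2 and SOD1 in opposite directions, with r = -0.947 (permutation p = 7e-05, adjusted p = 0.00315) and rho = -0.86 over 12 cows. It was -0.917 without the 2 cows farthest from the median of NFE2L2, -0.96 with slide effects removed and -0.949 without cow 0049. Over the 12 pairs of probes of these genes without a missing value, r ran from -0.947 to -0.748. Cows with a high NFE2L2 signal for their diet, such as CONT cow 0055 and REST cow 1018, were those with the lowest SOD1.

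SOD2 and GPX1 varied in the same direction (r = 0.928, permutation p adjusted over the pairs 0.0198, rho = 0.923). This relation was 0.691 without the 2 cows farthest from the median and 0.854 without cow 0049. NFE2L2 and GCLC also varied together (r = 0.859), while GCLC and SOD1 were opposed (r = -0.8), but the GCLC probe was well above background on only 2 CONT and 1 REST arrays, so that both relations rest largely on signals near background. GCLM and SOD1 were opposed as well (r = -0.737), and these 5 pairs also passed for rho. The other 4 passed for r only. PRDX1 varied with GPX1 (r = 0.839), but r was 0.366 without the 2 farthest cows and 0.613 without cow 0049 (adjusted permutation p of rho 0.183). PRDX1 and SOD1 gave r = -0.761 (adjusted permutation p of rho 0.0704). The relation of TXNRD1 with SOD2 (r = 0.836) was 0.529 without cow 0049 and 0.0084 for the pair of probes that gave the least. That of CAT with PRDX1 (r = 0.613) was 0.152 for the CAT probe that gave the least.

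**Figure D4:**
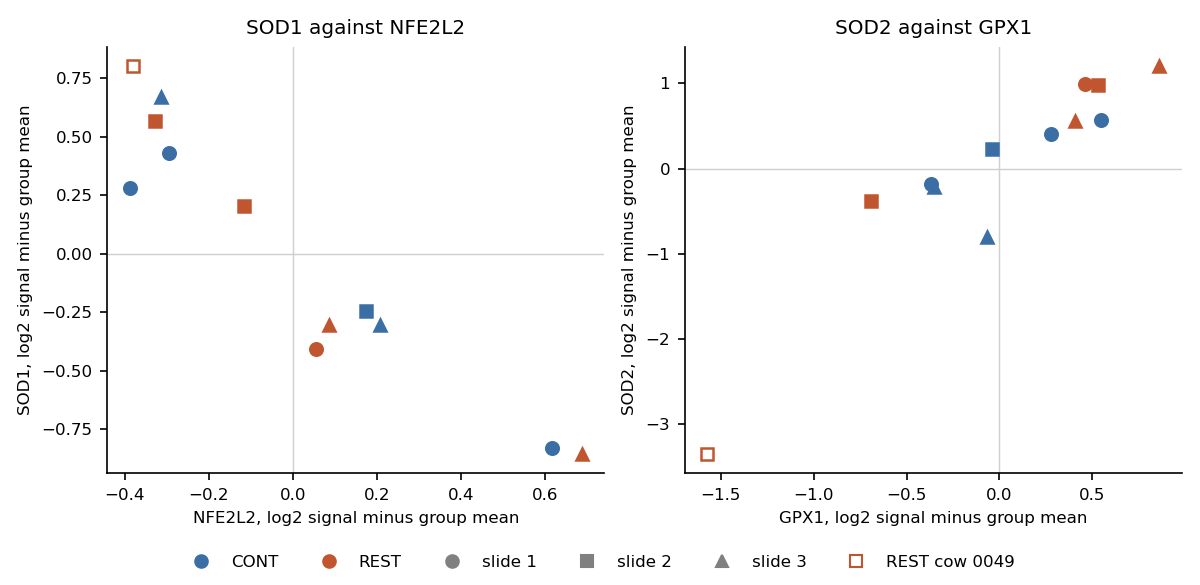
SOD1 against NFE2L2 and SOD2 against GPX1, each as log2 signal minus the mean of the diet group, for the 12 cows. SOD1 was low where NFE2L2 was high (r = -0.947), and SOD2 was high where GPX1 was high (r = 0.928, and 0.854 without cow 0049).

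The genes were also set against the summed signal of 8 marker lists and the endotoxin list in the same way, 90 relations in all, chosen after the values had been seen. After Benjamini-Hochberg adjustment, 27 had a permutation p under 0.05 for r and 14 for both r and rho. SOD1 varied with the secretory epithelium sum (r = 0.771, adjusted permutation p = 0.0338, and 0.701 without cow 0049), which the casein and whey protein genes dominate. GCLM (r = -0.827), NQO1 (r = -0.823) and PRDX1 (r = -0.788) varied against it, each also passing for rho, and CAT (r = -0.818) for r only. These relations were not particular to this list. SOD1 also varied with the adipose (r = 0.718) and red blood cell (r = 0.702) sums and against the fibroblast sum (r = -0.741), all 3 passing for rho. CAT varied against the red blood cell (r = -0.871) and adipose (r = -0.847) sums for r only and against the lymphocyte sum (r = -0.703) for both. Without the 2 cows farthest from the median of the sum, these were -0.559, -0.48 and -0.623. GCLC varied against the adipose (r = -0.789) and red blood cell (r = -0.765) sums, and GCLM with the fibroblast sum (r = 0.812). PRDX1 varied with the neutrophil list (r = 0.855, and 0.685 without cow 0049). SOD2 varied with the endotoxin list for r only (r = 0.946, adjusted permutation p = 0.0304, that of rho 0.0622), and r was 0.738 without cow 0049 and 0.62 without the 2 farthest cows. TXNRD1 (r = 0.84) and GPX1 (r = 0.843) also varied with that list for r only, at 0.548 and 0.547 without cow 0049. A further 4 relations passed for rho only. NFE2L2 gave rho = -0.839 with the adipose sum (adjusted permutation p = 0.0227), -0.818 with the red blood cell sum and 0.762 with the fibroblast sum, each opposite in sign to SOD1, and GCLM gave -0.797 with the adipose sum. By list, the relations that passed for r numbered 5 for red blood cells, 5 for secretory epithelium, 4 for adipose tissue, 4 for fibroblasts, 3 for neutrophils, 3 for the endotoxin list, 2 for lymphocytes, 1 for macrophages and 0 for endothelium. Each sum adds signals on the linear scale, so that the brightest genes of a list weigh most, those of the endotoxin list included. Many of these sums move together in the same 12 biopsies, so that the relations are not independent of each other.

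The sums and the genes were divided by the same 75th percentile, and both were therefore also set against its log2 value (19 relations, chosen after the values had been seen, with group means removed). Division by the percentile lowers a value where the percentile is high, so that a negative r is partly built in. The permutation p does not allow for this. After adjustment, 5 of 9 sums and 3 of 10 genes passed for both r and rho. The secretory (r = -0.925), lymphocyte (r = -0.937), red blood cell (r = -0.761) and adipose (r = -0.674) sums were high on arrays with a low percentile, and the fibroblast sum (r = 0.897) was low there. GCLM (r = 0.84, adjusted permutation p = 0.00722), NQO1 (r = 0.801) and CAT (r = 0.693) were low there as well, at 0.763, 0.784 and 0.665 without cow 0049. With the percentile removed as a linear term, r with the secretory sum was 0.648 for SOD1, -0.242 for GCLM, -0.361 for NQO1, -0.598 for PRDX1 and -0.644 for CAT. It was 0.242 for GCLM with the fibroblast sum, -0.211 for CAT with the lymphocyte sum and 0.447 for SOD1 with the red blood cell sum. Values near those above remained for GCLC with the adipose (-0.787) and red blood cell (-0.802) sums and PRDX1 with the neutrophil list (0.775). The same step gave r = -0.972 for NFE2L2 with SOD1, 0.891 for SOD2 with GPX1 and 0.973 for SOD2 with the endotoxin list, so that these 3 were as large as, or near, their values above. It gave -0.5 for GCLM with SOD1 and 0.278 for CAT with PRDX1. The part of the percentile in the relations with the marker sums and in the differences between diets was not tested further.

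The other genes of the pathways were read from 7 lists with 129 genes, of which 109 were matched and 97 were well above background in a group. limma called 0 of the 109 past the adjusted threshold by Westfall-Young or by Benjamini-Hochberg. A total of 56 had a higher and 53 a lower mean in REST, with a median difference of 0.01. At an unadjusted p under 0.05, 4 genes were higher in REST and 0 lower, beside 1.63% and 1.01% of all genes. NADPH supply had 8 of 10 genes with a lower mean in REST and a median of -0.10, and the other NRF2 target genes had 16 of 21 with a higher mean and a median of 0.12. Control of NRF2 had 11 of 14 genes lower (median -0.08), and glutathione synthesis and reduction 9 of 15 lower (median -0.06). Peroxidases and transferases had 13 of 21 genes higher (median 0.05), thioredoxin and peroxiredoxin genes 8 of 15 (median 0.01), and superoxide genes 8 of 13 (median 0.06).

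SQSTM1 encodes p62, an autophagy receptor that binds KEAP1 and is itself an NRF2 target. It had 1.91, 2.83 and 3.38 as lowest, median and highest in CONT, and 3.098, 3.38 and 3.71 in REST. The difference was 0.69 ± 0.26 (exact permutation p = 0.0303), but it was 0.16 with the mean over all probes of the gene. GPX3, the extracellular glutathione peroxidase, had -3.83, -2.96 and -2.67 in CONT and -3.60, -2.11 and -1.79 in REST. Its difference was 0.77 ± 0.34 (exact permutation p = 0.0584), and it was 1.16 with slide as a block but 0.42 with normexp correction (limma unadjusted p = 0.102). GLRX2, a mitochondrial glutaredoxin, ranged from -3.42 to -2.23 in CONT and from -2.84 to -1.91 in REST, with a difference of 0.50 ± 0.22, which was 0.25 with normexp correction (limma unadjusted p = 0.246). CBR3, a carbonyl reductase, ranged from -0.77 to -0.10 in CONT and from -0.20 to 0.31 in REST, with a difference of 0.35 ± 0.16 and an exact permutation p of 0.013. The ranges of the diets overlapped for each of the 4 genes, and limma gave each a Westfall-Young adjusted p of 1.

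HMOX1, heme oxygenase 1, ran from 2.18 to 4.33 in CONT and from 1.78 to 4.80 in REST, a difference of 0.02 ± 0.57. The ferritin heavy chain gene FTH1 differed by -0.0017 ± 0.24.

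**Figure D5:**
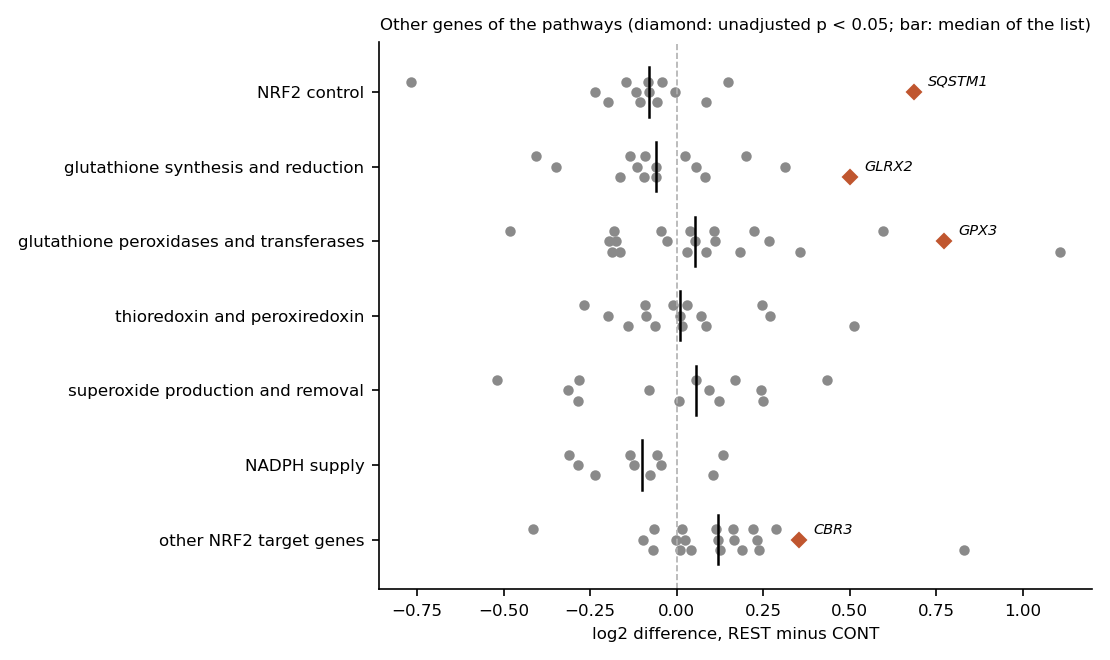
Log2 difference between REST and CONT for the matched genes of the 7 pathway lists, with the median of each list as a bar and the 4 genes with an unadjusted p under 0.05 as diamonds. The medians lie between -0.10 and 0.12, and all 4 marked genes lie to the right of 0.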

How the data were processed

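Total RNA (100 ng per cow) from the biopsies was amplified and labeled with Cy3 by the authors, and each sample was put on its own bovine Agilent array (one color). The authors read the images with Feature Extraction 11.0.1.1, and the deposited values are its spot intensities after background correction, with no normalization between arrays. The deposited matrix holds the same intensities (largest difference 0). Control spots were left out, outlier spots were dropped, and the log2 intensity was centered on the 75th percentile of the array and averaged per probe (43653 probes, of which 205 were missing on some array and 7047 never well above background). Probes were named by RefSeq accession, 26832 of them to 12639 genes, and the brightest probe stands for a gene. No positions are given, because the RefSeq table refers to a newer assembly than the array annotation, and sequences were not used here.

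REST and CONT were compared across all probes with limma 3.58.1 in R 4.3.3 (lmFit and eBayes, two-sided). Westfall-Young adjusted p-values used 100 regroupings of the cows, and Benjamini-Hochberg values were set beside them, with a threshold of 0.05. Exact permutation tests enumerated all 924 assignments of the cows and can give no p below 0.00216. The fit was tested on simulated data. Figures were drawn with matplotlib from the values per cow. Alternatives were another draw of regroupings, quantile normalization, normexp (offset 50), the deposited matrix, a filter on dim probes, slide as a block, outlier spots kept, the mean over probes, an intensity trend in eBayes, and leaving out each cow. The number of arrays limits the precision. Named besides the 10 genes are pathway genes with an unadjusted p under 0.05 that were well above background on all arrays of a group, KEAP1 and CUL3 (BACH1 had no matched probe and is not analysed here), and the brightest marker genes. The genes, lists and tests were chosen with earlier results of these data known. HP, LBP, M-SAA3.2, TNF, NFKBIA, CXCL8, LTF, KRT8, LALBA, HMOX1, FTH1 and CD177 were named after their values were seen. The cows are separate animals.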

Additional observations from a re-analysis of the deposited data

Results flagged for a closer look

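Within 46 groups of cows (each probe in each diet), 3 values lay apart from the others by Dixon's test at its 95% critical value, where chance gives about 1 in 20, or 2.3 groups. SOD2 in REST cow 0049 was 1.58, and the nearest other REST cow was 4.54. GCLM in CONT cow 0015 was -1.47, and the nearest other CONT cow was -0.80. CAT in CONT cow 8027 was 2.39 for the brightest probe, and the nearest other CONT cow was 1.90.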

How the results depend on the processing

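No alternative brought a probe or any of the 10 genes past the adjusted threshold. Over 19 settings, 176 of 189 differences of single genes kept their sign. The deposited matrix, which holds the same intensities, could not change a sign, and keeping outlier spots left the differences of the 10 genes unchanged. With slide as a block, 7 members were higher in REST in place of 3, and the sign turned for NQO1 (0.039), GCLM (0.014), GPX1 (0.14) and PRDX1 (0.018). Leaving out a cow gave 2 to 6 members higher in REST, with 6 without REST cow 0049. The range over the cows left out was -0.12 to 0.15 for NFE2L2, -0.34 to 0.013 for GCLM, -0.31 to 0.029 for SOD1, -0.31 to 0.18 for GPX1 and -0.12 to 0.081 for PRDX1, each with a change of sign. It was -0.22 to -0.039 for NQO1, -1.49 to -0.58 for SOD2 and -0.89 to -0.49 for GCLC. GCLC had an unadjusted limma p of 0.00915 without REST cow 1018 and 0.0415 without CONT cow 1076, and could not be measured after the filter on dim probes. CUL3 turned to 0.015 with normexp and to 0.025 with the mean over probes. Of the pathway genes, SQSTM1 stayed positive in all 19 settings, but its unadjusted limma p was 0.538 with the mean over probes and 0.0516 without CONT cow 0015. The unadjusted p was under 0.05 in 10 of 19 settings for GPX3 (highest p 0.131), 8 for GLRX2 (0.246) and 10 for CBR3 (0.0954). The causes of these changes were not tested. Unadjusted p under 0.05 was found for 377 probes with normexp and 1739 without REST cow 1058, in place of 1143. No paired analysis was possible because the labels number each cow separately.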
